A study of Mus musculus with 48 samples.

Results

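Gpnmb ranged widely between clonal monocyte cultures derived from ER-Hoxb8 cells, and 16 of the 24 monocyte libraries were compared here for what else differed between the clones at the ends of that range. The 8 high-Gpnmb libraries are the 4 clones with the most Gpnmb TPM among clones 1 to 13 and the 4 with the most among clones 15 to 26. The 8 low-Gpnmb libraries are the 4 with the least in each of these sets. The rule left out clones 8 and 26, and 6 further monocyte libraries lay between the groups. The whole series holds 48 libraries, 24 of monocytes and 24 of progenitors, and the 16 progenitor libraries of the same clones were compared in the same way.

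ER-Hoxb8 cells are mouse bone marrow progenitors held in an immature state by a Hoxb8 protein fused to the hormone-binding part of the estrogen receptor, and they mature when the fusion protein is switched off. Both groups carry this transgene and share the growth medium named in the labels, RPMI with serum and stem cell factor. The labels call the progenitors GMP cells and name monocytic cells for the mature state. They name no treatment, strain, sex or age that separates the groups, and an unnamed difference of this kind between clones cannot be seen here. Each clone gave 1 library per state, so every spread given here is a spread between clones, and the sources used here do not say how many animals the clones came from.

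Gpnmb encodes a transmembrane glycoprotein of lysosomes and melanosomes. In mouse it is known from lipid-laden and tissue-repair macrophages, from osteoclasts and from pigment cells. Its transcription is driven by the MiT family of factors, Mitf, Tfeb, Tfe3 and Tfec, which also act on lysosomal genes through short E-box and M-box motifs in their promoters. The gene (ENSMUSG00000029816.10, protein coding) lies on the plus strand at chr6:49036546-49070929 in GRCm38. The 250 bases before its RefSeq start and those of 2 genes of the groups described below are shown, because these groups moved with Gpnmb. Capitals mark the E-box core CACGTG in Mcoln1, the calcium channel of lysosomes, and the AP-1 motif TGACTCA, read on the other strand as TGAGTCA, in Srxn1, which repairs peroxiredoxins. The Gpnmb window (chr6:49036268-49036517, plus strand) held none of the motifs searched on both strands, which were the E-box core CACGTG, the M-box TCATGTG, the core TGACNNNGC of the antioxidant response element and the AP-1 motif TGACTCA. The Mcoln1 window is chr8:3500269-3500518 and the Srxn1 window chr2:152105274-152105523, both on the plus strand of GRCm38.p6.
Gpnmb: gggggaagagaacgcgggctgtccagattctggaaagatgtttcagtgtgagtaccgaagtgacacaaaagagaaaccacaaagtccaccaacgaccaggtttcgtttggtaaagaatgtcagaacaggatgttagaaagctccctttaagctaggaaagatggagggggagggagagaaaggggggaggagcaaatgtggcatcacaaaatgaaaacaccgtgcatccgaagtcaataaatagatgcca
Mcoln1: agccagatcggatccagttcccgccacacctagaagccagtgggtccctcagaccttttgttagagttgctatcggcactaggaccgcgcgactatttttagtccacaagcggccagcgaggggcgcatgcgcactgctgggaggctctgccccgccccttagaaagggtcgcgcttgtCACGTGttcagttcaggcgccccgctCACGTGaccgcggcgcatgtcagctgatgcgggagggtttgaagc
Srxn1: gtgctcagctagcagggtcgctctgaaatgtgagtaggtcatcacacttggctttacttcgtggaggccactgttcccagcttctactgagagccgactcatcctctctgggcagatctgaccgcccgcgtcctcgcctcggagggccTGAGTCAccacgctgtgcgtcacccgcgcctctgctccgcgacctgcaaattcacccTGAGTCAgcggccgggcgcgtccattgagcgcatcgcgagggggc

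In the high-Gpnmb group, Gpnmb stood at 1439 (clone 1), 1448 (clone 11), 1802 (clone 13) and 2341 TPM (clone 5) in the first set and at 942 (clone 24), 1109.8 (clone 16), 1121 (clone 18) and 2416 TPM (clone 15) in the second. Low-Gpnmb clones had 48.1 (clone 9), 212 (clone 3), 290.3 (clone 4) and 375 TPM (clone 2) in the first set and 12.7 (clone 19), 147 (clone 21), 298 (clone 20) and 482 TPM (clone 23) in the second. The groups were chosen by these values, which are a description only. Just outside the high group lay clone 10 with 746 TPM and clone 17 with 609 TPM. Just outside the low group lay clone 12 with 495 TPM and clone 22 with 545 TPM, so in the second set the lower boundary fell in a narrow gap. The clones left out had 161 (clone 8) and 288 TPM (clone 26), levels within the low range.

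**Figure D1:**
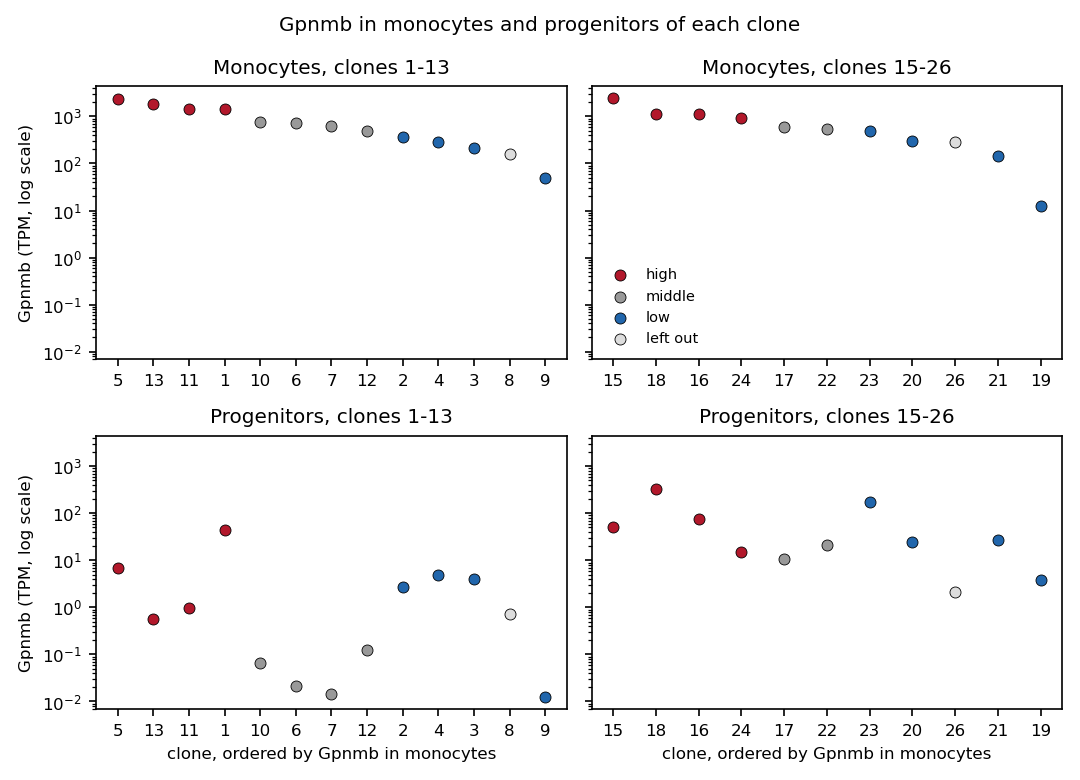
Gpnmb in TPM on a log scale for every clone, monocytes above and progenitors below, clones 1 to 13 on the left and 15 to 26 on the right, ordered by the monocyte value. High-Gpnmb monocytes ran from 942 to 2416 TPM and low-Gpnmb monocytes from 12.7 to 482 TPM, while the progenitors of the 2 groups overlapped.

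The libraries differed in make-up between the groups, which bears on every gene below because TPM are shares of a library. The 20 most abundant genes took 20.8 to 28.7% of TPM in high-Gpnmb monocytes (median 25.1%) and 25.0 to 36.1% in low-Gpnmb monocytes (median 28.9%; two-sided exact permutation within sets, p = 0.00327, 0.015 after Benjamini-Hochberg adjustment over 11 library measures). High-Gpnmb libraries had 10216 to 10717 genes at 1 TPM or more and low-Gpnmb libraries 9436 to 10495 (p = 0.000408, the smallest that the 4900 arrangements of this exact permutation test can give). The median gene stood at 10.9 TPM in high-Gpnmb and 8.69 TPM in low-Gpnmb libraries (medians of 8 each). Mitochondrial transcripts took 4.46 to 15.8% of TPM in high-Gpnmb and 1.97 to 19.1% in low-Gpnmb libraries (exact permutation p = 0.721). TPM keep no read depth, so no counting error can be given. As checks of the label, Lyz2, the lysozyme of myeloid cells, averaged 10987 ± 3751 TPM in the high and 8440 ± 4367 TPM in the low group (SD, n = 8 each), and Ly6c2, a marker of classical monocytes, 965 ± 477 TPM in the high and 971 ± 544 TPM in the low group. Genes of neutrophils were high as well, which the label does not name: S100a9, the partner of S100a8 in calprotectin, averaged 18509 ± 11587 TPM in the high and 45569 ± 24832 TPM in the low group, and Ltf, lactoferrin of secondary granules, 12994 ± 8581 TPM in the high and 19765 ± 16176 TPM in the low group (SD, n = 8 each). The low-Gpnmb library of clone 23 stood apart from its group: neutrophil granule genes took 0.222% of its TPM and 6.61 to 24.3% in the other 7.

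**Figure D2:**
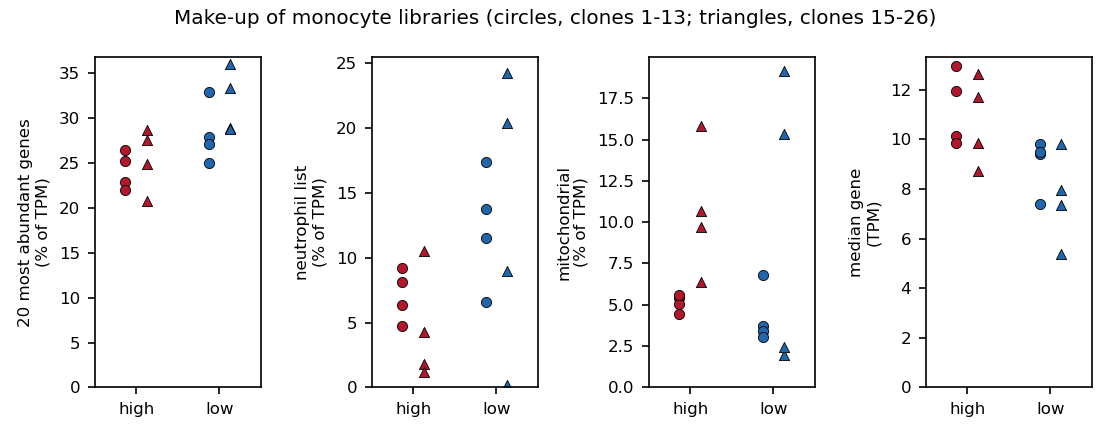
Make-up of each monocyte library: the share of TPM in the 20 most abundant genes, in the neutrophil list and in mitochondrial transcripts, and the TPM of the median gene. Circles are clones 1 to 13 and triangles clones 15 to 26, and the median gene was at 10.9 TPM in high-Gpnmb and 8.69 TPM in low-Gpnmb libraries.

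Across all genes but Gpnmb, lysosomal, macrophage and antioxidant genes were higher in high-Gpnmb monocytes and very few genes were lower. Of 10748 genes with a mean of at least 1 TPM, 1540 (14.3%) were higher and 11 (0.102%) lower in high-Gpnmb monocytes at an adjusted p under 0.05 (limma on log2(TPM + 1) with set as a covariate, Benjamini-Hochberg over all genes). A total of 716 (6.66%) were higher by at least 2-fold on that scale. In 374 genes (3.48%) every high library lay above every low one within both sets, and in 3 (0.0279%) every one lay below. The median of all genes was 0.29 on the log2 scale, so the lopsided split depended on the scaling: after quantile normalization, with a median of -0.06, 176 genes (1.64%) were higher and 35 (0.326%) lower, and with each library centred on its median gene 115 (1.07%) were higher and 23 (0.214%) lower. All 176 and all 115 were among the 1540. Below, fold changes are those of the deposited TPM, to be read against the 0.29 of the median gene. Counts of list members called higher are to be read against the shares of all genes. These were 14.3% as deposited, 1.64% after quantile normalization and 1.07% with median centring. Of the genes described below as higher, Cd5l, Fabp5, Trem2, Fcgr1, Tnfrsf11a, Itgb3, Slc11a1, Mcoln1, Gas6, Stab1, Pltp, Abca1, Nr1h3, C1qc, Clec10a, Mmp13, Mmp19, Timp2, Irf8, Ccr2, Cd300ld, Pou2f2, Fth1, Mitf, Tfec, Ccl2, Oasl2, Bst2, Oas1a, Usp18 and Xaf1 did not pass after quantile normalization. With median centring these and also Mrc1, Cd68, Ctss, Mfge8, Hmox1 and Ftl1 did not pass. Of the 1540 higher genes, 137 averaged under 1 TPM in the low group and so passed the filter only through the high group, Lrrc14b, Tnfrsf11a, Abca1, Mmp13 and Pou2f2 among them.

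The sets of clones did not contribute alike to the calls. Of the 1540 higher genes, 1539 had a positive change in both sets, and 897 also had an unadjusted p under 0.05 in clones 15 to 26 taken alone. These genes were called in a fit over the same libraries of both sets. Their agreement in sign was thus largely fixed in advance, and both counts are a description only. Clones 1 to 13 alone gave 1535 higher (14.4% of 10673 tested) and 433 lower genes (4.06%). Clones 15 to 26 alone gave 0 by limma, with 1599 genes (15% of 10689) at an unadjusted p under 0.05. The interaction of group and set passed for 10 genes (0.093%). The count of calls over both sets fell to 839 without clone 9 and to 856 without clone 5, both directions together. In the 6 libraries between the groups, which did not enter the comparison of high with low, the mean lay between the group means for 96.7% of the 1540 genes in the first set (68.5% of all genes) and for 47.3% in the second (22% of all genes). In the second set these libraries were clones 17 and 22 only. The 1540 genes were called for a gap between the same group means. A greater share among them was thus partly fixed in advance, and these shares too are a description only.

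**Figure D3:**
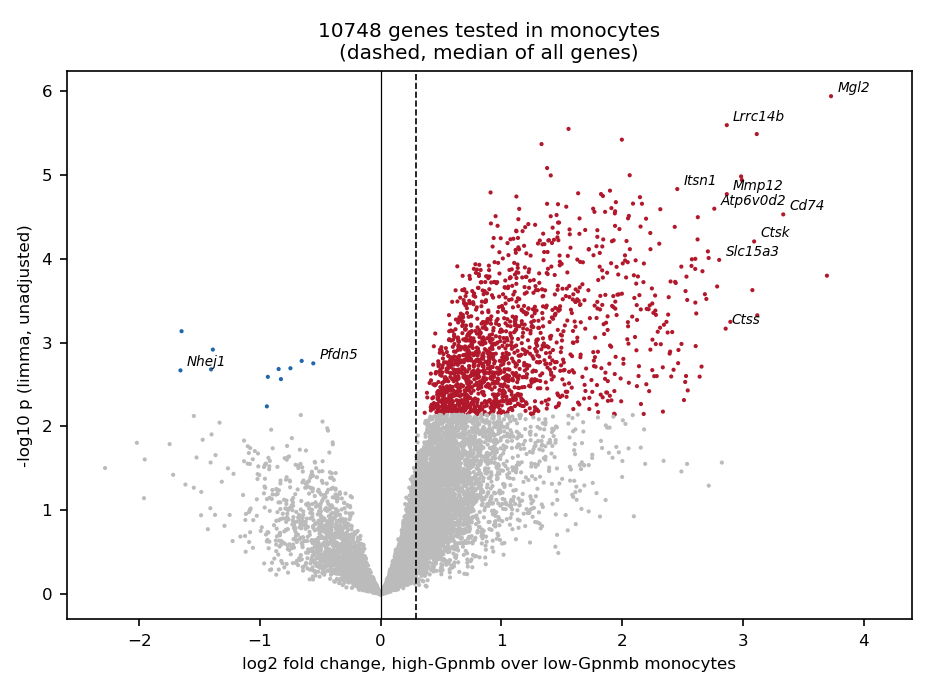
Change between high-Gpnmb and low-Gpnmb monocytes on the log2(TPM + 1) scale against the unadjusted p of limma for 10748 genes, with genes at an adjusted p under 0.05 in red (1540 higher) and blue (11 lower). The dashed line at 0.29 is the median of all genes.

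The 8 genes with the largest change among those separate in both sets were a C-type lectin, a matrix protease and several proteins of lysosomes and endocytosis. All 8 passed also after quantile normalization and with median centring, and kept an adjusted p under 0.05 when any 1 clone was left out. They were picked in the same libraries for passing, for separate groups and for a large change. That they kept their calls was thus partly fixed in advance and is a description only. Mgl2 (chr11:70130329-70137550), a galactose-binding lectin of macrophages and dendritic cells, ran from 8.97 to 117 TPM in high-Gpnmb monocytes (median 41.8) and from 0 to 11.6 TPM in low-Gpnmb monocytes (median 1.15). Its change was 3.73 ± 0.49 on the log2 scale (SE, adjusted p = 0.0077), and 6 of the 8 high libraries were above every low one. Mgl2 and Clec10a are near-identical neighbours, so the division of reads between them is uncertain. Mmp12 (chr9:7344381-7369499), the elastase of macrophages, ran from 43.4 to 865 TPM in the high group (median 113) and from 2.92 to 95.0 TPM in the low group (median 17.5; log2 change 2.87 ± 0.47 SE, adjusted p = 0.0078). The 4 high clones of the first set had 149 to 865 TPM, above the 43.4 to 76.4 TPM of the 4 high clones of the second, and the groups overlapped when the sets were pooled. Lrrc14b (chr13:74359578-74364005), a leucine-rich repeat protein, ran from 2.50 to 37.6 TPM in the high group and from 0 to 1.51 TPM in the low group, with no overlap (log2 change 2.87). It entered the test only through its level in the high group.

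Atp6v0d2 (chr4:19876841-19922605), the subunit of the vacuolar proton pump that is known from macrophages and osteoclasts, ran from 24.7 to 115 TPM in high-Gpnmb monocytes (median 47.9) and from 1.08 to 22.7 TPM in low-Gpnmb monocytes (median 8.29). No value of the groups overlapped (log2 change 2.76 ± 0.47 SE, adjusted p = 0.0078). Slc15a3 (chr19:10839727-10859362), a lysosomal carrier of peptides and histidine, ran from 46.9 to 293 TPM in the high group, the top value in clone 15, and from 1.15 to 30.8 TPM in the low group (log2 change 2.80). Gpr137b (chr13:13357620-13394014), a lysosomal membrane protein with a pseudogene copy that makes its reads uncertain, had 34.0 ± 8.02 TPM in the high and 8.21 ± 9.45 TPM in the low group (SD, n = 8 each). Itsn1 (chr16:91729281-91920597), a scaffold of endocytosis, and Dusp3 (chr11:101971143-101987013), a dual-specificity phosphatase, changed by 2.46 and 2.39. The high and low libraries of Slc15a3, Itsn1 and Dusp3 did not overlap, and low clone 23 was the highest low library for Atp6v0d2, Slc15a3, Gpr137b, Itsn1 and Dusp3.

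**Figure D4:**
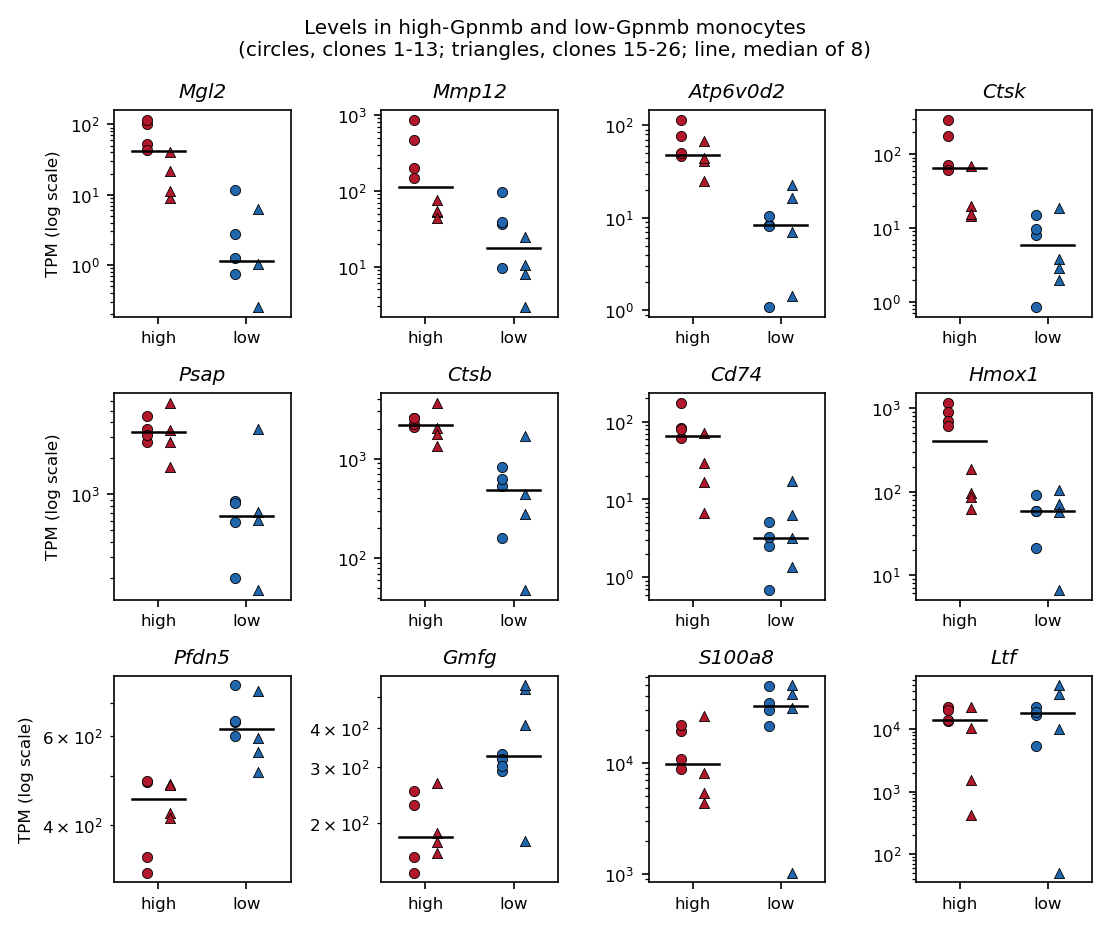
TPM of 12 genes on log scales in the 8 high-Gpnmb and the 8 low-Gpnmb monocyte libraries, circles for clones 1 to 13 and triangles for clones 15 to 26, with a line at the median. Atp6v0d2 was at 24.7 to 115 TPM in the high and 1.08 to 22.7 TPM in the low group, while S100a8 and Ltf overlapped.

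Lysosomal enzymes were the list with the most calls. Of 28 measured hydrolases and cofactors, 22 were higher, 0 lower and 6 did not pass, against 14.3% of all genes higher. The list median was 1.34 on the log2 scale against 0.29 for all genes. After quantile normalization 12 were higher, with a median of 1.02 against -0.06. With median centring 6 were higher, and leaving out 1 clone gave 18 to 23. Summed over the list, hydrolases took 7823 to 22476 TPM in the high group and 1526 to 11452 TPM in the low group. Ctss, the cathepsin that trims the invariant chain, ran from 428 to 2894 TPM in high-Gpnmb monocytes (median 984) and from 12.2 to 801 TPM in low-Gpnmb monocytes (median 172; log2 change 2.86 ± 0.68 SE, adjusted p = 0.0153). Ctsb, another cathepsin, ran from 1359.7 to 3675 TPM in the high group (median 2173) and from 48.0 to 1685 TPM in the low group (median 491), and 7 of the 8 high libraries were above every low one. Its change was 2.52 ± 0.54 (SE, adjusted p = 0.0105). Psap, the precursor of the saposins that help degrade sphingolipids, averaged 3440.1 ± 1256 TPM in the high and 933 ± 1070.1 TPM in the low group (SD, n = 8 each), with a log2 change of 2.40. Low clone 23, at 3499 TPM of Psap, lay above 6 of the high libraries, and the other 7 low clones had at most 870.2 TPM.

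Genes of the lysosomal membrane and the proton pump moved in the same direction with smaller changes. Of 23 measured, 13 were higher, 0 lower and 10 did not pass (median 0.87), against 14.3% of all genes higher. After quantile normalization or median centring 2 were higher, and the count was 8 without clone 1 and 7 without clone 5, clone 9 or clone 15. Slc11a1, the metal exporter of phagosomes, was at 98.1 to 550.05 TPM in the high and 2.15 to 123 TPM in the low group (log2 change 2.49 ± 0.62 SE, adjusted p = 0.0181, quantile-normalized 0.0533). Slc37a2, a sugar phosphate transporter of macrophages, and Lamp1, a coat protein of the lysosomal membrane, changed by 1.91 and 1.48 and passed under both scalings. Mcoln1, chosen for display after its values were seen, averaged 52.2 ± 10.9 TPM in high and 27.2 ± 8.05 TPM in low clones (SD, n = 8 each; log2 change 0.93, adjusted p = 0.00802, quantile-normalized 0.0745).

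The printed Mcoln1 window held CACGTG at 71 and 45 bases before the start. This motif was in the 250 bases before the start of 25.0% of the 44 RefSeq promoters of the lysosomal lists, including those of Ctsd, Ctsl, Lamp1 and Gaa. It was in 10.5% of 1501 promoters of the genes that were higher, 8.61% of 9991 promoters of genes tested and 6.02% of all 32851. TCATGTG, the M-box, was in 9.09% of the promoters of the lysosomal lists, 2.93% of those of higher genes, 1.8% of those tested and 3.25% of all. CACGTG reads the same on both strands, and these shares describe letters, not binding.

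Macrophage genes followed. Of 15 measured macrophage identity genes, 8 were higher and 0 lower (median 1.92), against 14.3% of all genes higher. The count was 3 after quantile normalization, 1 with median centring and 7 to 11 when 1 clone was left out. Of the 8, 2 were measured only through the high group. Mrc1, the mannose receptor CD206, was at 4.66 to 58.4 TPM in the high group (median 16.97) and at 0.176 to 15.96 TPM in the low group (median 1.16; log2 change 2.72 ± 0.53 SE, adjusted p = 0.00893). Cd68, a sialomucin of macrophage lysosomes, was at 236 to 703 TPM in the high and 24.5 to 878 TPM in the low group, where clone 23 had the 878 TPM and the other 7 clones at most 159.9 TPM (log2 change 2.35, adjusted p = 0.0146). Fcgr1, the high-affinity IgG receptor CD64, had a log2 change of 2.51 (adjusted p = 0.0399) and lost the call when any of 11 clones was left out. Vsig4, Timd4, Cd163 and Marco, markers of resident tissue macrophages, were under the filter.

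Among genes of lipid-handling macrophages, where Gpnmb itself is usually listed, 13 of 19 measured were higher and 0 lower (median 1.61). Of all genes tested, 14.3% were higher. Of the 13, 5 were higher after quantile normalization and 3 with median centring. Trem2, the lipid-sensing receptor of this program, ran from 125.5 to 365 TPM in the high group (median 275) and from 9.99 to 311 TPM in the low group (median 60.3; log2 change 2.31 ± 0.55 SE, adjusted p = 0.0151, quantile-normalized 0.0503). Its adaptor Tyrobp was at 1629 ± 266 TPM in high and 1562 ± 289 TPM in low clones (SD, n = 8 each; log2 change 0.07, adjusted p = 0.821). Cd5l, a secreted scavenger protein, changed by 2.54 and Fabp5, a fatty acid carrier, by 2.34, and Fabp5 lost its call without clone 9. Spp1, osteopontin, which is often measured together with Gpnmb, ran from 323 to 2823 TPM in the high and 23.7 to 1021 TPM in the low group (log2 change 1.83, adjusted p = 0.0874). Apoe changed by 1.34 (adjusted p = 0.0911), and the fatty acid receptor Cd36 was at 0 to 1.93 TPM in the high and 0 to 0.611 TPM in the low group, under the filter.

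Some osteoclast genes were higher and others were too low to test. Ctsk, the collagen-cutting cathepsin, ran from 14.4 to 294 TPM in the high group (median 65.5) and from 0.847 to 19.003 TPM in the low group (median 5.92; log2 change 3.09 ± 0.58 SE, adjusted p = 0.00778). Of 12 genes listed, 6 were measured and 4 were higher, namely Ctsk, Atp6v0d2, Tnfrsf11a and Itgb3, or 3 leaving aside Tnfrsf11a, which was measured only through the high group. The share of all genes that were higher was 14.3%. Acp5, Dcstamp and Ocstamp, which mark osteoclasts and their fusion, averaged 1.23, 0.122 and 0.114 TPM in the high and 0.248, 0.00435 and 0.0354 TPM in the low group, under the filter.

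Of the scavenger and efferocytosis receptors and bridges, 8 of 14 measured were higher and 0 lower (median 1.46), against 14.3% of all genes higher. The count moved with the settings: 2 were higher after quantile normalization, 0 with median centring, 3 without clone 5, clone 9 or clone 21, 4 without clone 15, clone 18 or clone 24, and 5 without clone 1, clone 3 or clone 16. Mfge8, a bridge to dying cells, averaged 50.1 ± 28.6 TPM in the high and 8.57 ± 10.3 TPM in the low group (SD, n = 8 each; log2 change 2.66, adjusted p = 0.00939). Gas6, the ligand of Axl and Mertk, changed by 2.08 and passed with every clone left out in turn. The receptors themselves did not pass: Mertk changed by 1.02 (adjusted p = 0.0619) and Axl by 1.57 (adjusted p = 0.121). Stab1 changed by 2.16 with an adjusted p of 0.0422, and lost the call when any of 12 clones was left out.

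Of 8 measured targets of the sterol-sensing LXR receptors, 6 were higher (median 1.14), against 14.3% of all genes higher. After quantile normalization or median centring 1 was higher. The count was 2 without clone 9 and 3 without any one of clones 1, 2, 3, 5, 11, 13, 15 and 19. Abcg1, a cholesterol exporter, was at 5.63 to 40.6 TPM in the high group, the top value in clone 15, and at 0.912 to 7.96 TPM in the low group (log2 change 1.81 ± 0.36 SE, adjusted p = 0.00909). Pltp, the phospholipid transfer protein, changed by 2.43 and lost its call without clone 5 or clone 9. Abca1, another exporter, changed by 1.24 with an adjusted p of 0.0491 and lost the call when any of 13 clones was left out. It and Nr1h3, the LXR alpha receptor itself, were measured only through the high group, and 4 calls remain without them. Cholesterol synthesis genes had 0 calls among 16 measured, with a median of 0.11 that turned to -0.27 after quantile normalization.

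Antioxidant and iron genes were higher as well. Of 12 measured, 7 were higher, 0 lower and 5 did not pass (median 1.44), against 14.3% of all genes higher. The count was 4 after quantile normalization, 2 with median centring and 5 to 8 when 1 clone was left out. Prdx1, a peroxiredoxin, ran from 398 to 3412 TPM in the high group (median 1087) and from 35.4 to 665 TPM in the low group (median 270.5; log2 change 2.49 ± 0.50 SE, adjusted p = 0.00909). Hmox1, the heme-degrading enzyme, was at 620.1 to 1171 TPM in the high clones of the first set and at 61.5 to 187 TPM in those of the second, against 21.02 to 92.1 TPM and 6.58 to 103 TPM in the low clones of the same sets. Its change was 3.99 in the first set and 1.22 in the second, and the difference between the sets, -2.77, did not pass (adjusted p = 0.278). Srxn1 averaged 70.7 ± 69.6 TPM in the high and 11.6 ± 8.06 TPM in the low group (SD, n = 8 each; log2 change 2.15 ± 0.39 SE, adjusted p = 0.00778). The ferritin chains Fth1 and Ftl1, which have many pseudogene copies and are uncertain for that reason, averaged 7990 ± 2332 and 12862 ± 2899 TPM in the high group against 3359 ± 4277 and 6638 ± 4515 TPM in the low group, with log2 changes of 1.89 and 1.15.

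The Srxn1 window holds TGAGTCA at 102 and 45 bases before the start. TGACTCA in either orientation was in 18.2% of the 11 promoters of the antioxidant list, those of Srxn1 and Prdx1, in 4.06% of promoters of higher genes, in 3.15% of those tested and in 4.46% of all. The core of the antioxidant response element, TGACNNNGC, was in 27.3% of the promoters of that list (Gclm, Prdx1 and Txnrd1), 12.8% of those of higher genes, 11.8% of those tested and 10.2% of all. Only this spelling was searched, so a window without it may hold another form of the element. In the 44 promoters of the lysosomal lists, TGACTCA was in 9.09% and TGACNNNGC in 18.2%. In the 11 of the antioxidant list, the M-box was in 18.2% (Fth1 and Slc7a11) and CACGTG in 0%.

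Among the other lists, the invariant chain Cd74, which chaperones MHC class II, was at 6.63 to 175 TPM in the high group (median 65.8) and at 0.686 to 17.4 TPM in the low group (median 3.23; log2 change 3.33 ± 0.58 SE, adjusted p = 0.00778). The class II chains H2-Aa, H2-Ab1 and H2-Eb1 were at 0 to 7.57 TPM in the high and 0 to 3.15 TPM in the low group and stayed under the filter. Clec10a changed by 2.52, with the same doubt as Mgl2, and lost its call without any one of clones 3, 5, 9, 15 and 21. C3ar1, the receptor of the complement fragment C3a, changed by 2.61 ± 0.51 (SE, adjusted p = 0.00896) and C1qc, a chain of complement C1q, by 1.93 with an adjusted p of 0.0492. They were the only calls among 10 measured complement genes, a count to be read against the 14.3% of all genes that were higher. C1qc lost its call when any of 12 clones was left out, and without clone 23 the list had 6 calls. Of 6 measured metalloproteinases and inhibitors, 4 were higher, Mmp12, Mmp13, Mmp19 and Timp2, of which Mmp13 was measured only through the high group. Il7r, the interleukin-7 receptor chain, in the lymphoid list, was at 8.30 to 42.2 TPM in the high and 0.416 to 10.9 TPM in the low group (log2 change 2.23 ± 0.41 SE, adjusted p = 0.00778).

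Classical monocyte genes had few calls. Of 18 measured, 2 were higher, Irf8, a transcription factor of monocytes, and Ccr2, their chemokine receptor, both lost after quantile normalization, and the list median of 0.22 turned to -0.04. Ly6c2 changed by 0.05 (adjusted p = 0.944) and Chil3, a chitinase-like protein, by -0.14. Of 10 measured non-classical monocyte genes, 2 were higher, Cd300ld and Pou2f2, and neither after quantile normalization, and Pou2f2 was measured only through the high group. Both counts are to be read against the 14.3% of all genes that were higher. The classical count was 0 without any one of clones 5, 9, 15, 18, 19 and 21 and 5 without clone 23, and the non-classical count was 0 without clone 5 or clone 9.

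Neutrophil genes leaned the other way without passing. All 21 measured members of the secondary granule and neutrophil list had a negative change, with a median of -0.56 (quantile-normalized -0.64), and 0 passed in either direction. S100a8, a calcium-binding protein of neutrophils and monocytes, was at 4369 to 26692 TPM in the high group (median 9845) and at 1021 to 49869.8 TPM in the low group (median 32847; log2 change -1.05 ± 0.66 SE, adjusted p = 0.306). Ltf changed by -0.18 (adjusted p = 0.945). The list took 1.16 to 10.5% of TPM in high-Gpnmb and 0.222 to 24.3% in low-Gpnmb monocytes (exact permutation p = 0.0396, 0.109 adjusted over the 11 library measures). In these bulk cultures, fewer cells of a type and less RNA per cell cannot be told apart, and the part of this share in the other results was not tested. When the 20 most abundant genes were taken out and the remainder scaled up to the same total, 1076 of 11225 genes tested were higher and 16 lower, with a median of 0.207. Those 20 genes include S100a9, S100a8 and Ltf but also mt-Atp8, Actb and Rpl13a, so this does not set the neutrophil share apart. Melanocyte genes, the other known home of Gpnmb, summed to at most 0.923 TPM in the high and 0.817 TPM in the low group.

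**Figure D5:**
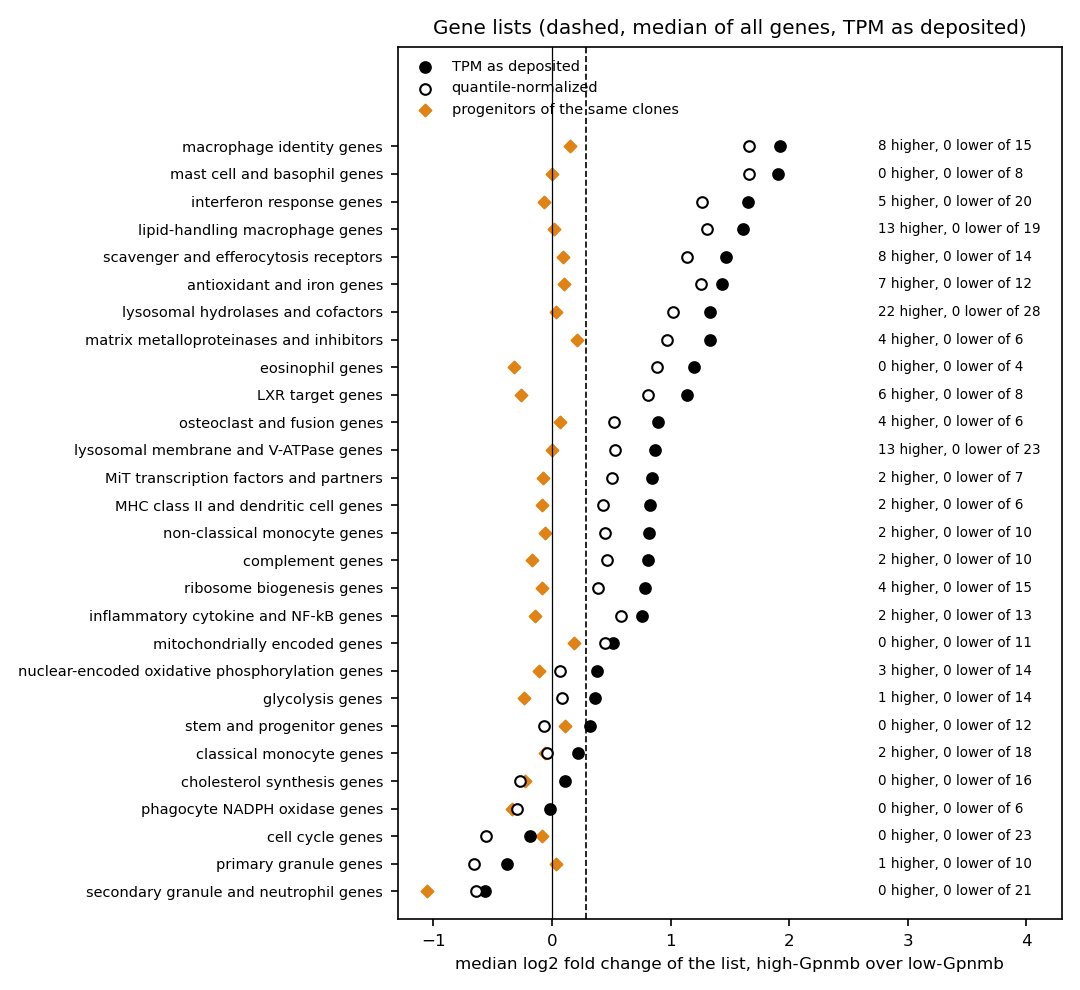
Median log2 change between high-Gpnmb and low-Gpnmb clones for each gene list, in monocytes as deposited (filled), after quantile normalization (open) and in progenitors of the same clones (diamonds), with the number of genes called in monocytes. Lysosomal hydrolases were at 1.34, neutrophil genes at -0.56 and all genes at 0.29 (dashed).

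Few genes were lower in high-Gpnmb monocytes. Pfdn5 (chr15:102326116-102331873), a subunit of the prefoldin chaperone, ran from 320.5 to 490.01 TPM in the high group (median 451) and from 509 to 758 TPM in the low group (median 620.3), with no overlap (log2 change -0.56 ± 0.15 SE, adjusted p = 0.0225). Hint3 (chr10:30608141-30629632), a nucleotide hydrolase, averaged 8.36 ± 2.46 TPM in the high and 13.3 ± 1.62 TPM in the low group (SD, n = 8 each; log2 change -0.65). Gmfg (chr7:28437447-28448233), which trims branched actin, and Nhej1 (chr1:74967139-75125200), a DNA end-joining factor, changed by -0.84 and -1.66. The calls of Pfdn5, Hint3 and Gmfg ended without clone 5 and that of Nhej1 without clone 21, and all of these 4 passed after quantile normalization.

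Of the MiT factors, Mitf ran from 2.56 to 11.5 TPM in the high group (median 4.66) and from 0.591 to 3.09 TPM in the low group (median 1.97), and 6 of the 8 high libraries were above every low one. Its change was 1.11 ± 0.27 (SE, adjusted p = 0.0156, quantile-normalized 0.116). Tfec averaged 19.1 ± 4.52 TPM in the high and 8.54 ± 7.04 TPM in the low group (SD, n = 8 each; log2 change 1.41) and lost its call without clone 5, 9, 21 or 24. Tfeb changed by 0.31 (adjusted p = 0.569) and Tfe3 by 0.84 (adjusted p = 0.214). Hoxb8, which counts the transgene and the native gene together, averaged 212 ± 120 TPM in the high and 217 ± 142 TPM in the low group (SD, n = 8 each; log2 change -0.13, adjusted p = 0.855).

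In the progenitors of the same clones, whose values the choice of clones did not use, no gene passed. Gpnmb in progenitors was at 0.58 to 43.7 TPM in high-Gpnmb and 0.013 to 4.82 TPM in low-Gpnmb clones of the first set, and at 15.03 to 326 TPM in high-Gpnmb and 3.83 to 172 TPM in low-Gpnmb clones of the second. The groups overlapped in both sets, and the mean difference was 1.06 on the log2 scale (two-sided exact permutation within sets, p = 0.260). Of 10716 genes tested by limma, 0 passed, and 81 (0.756%) had an unadjusted p under 0.05, fewer than tests without any difference give on average. The count at an unadjusted p under 0.05 was 363 without clone 24 and 436 without clones 21 and 24. With the 3 highest and 3 lowest clones of each set it was 929. In simulated progenitor data with independent noise, true changes of 1 (log2) were called in 32% of genes. The 0 therefore does not show that no gene differed. Clones 1 to 13 alone gave 5 calls, and every other alternative listed for this comparison gave 0. These include the fit without clones 21 and 24, which was chosen after seeing the data. The progenitor libraries of clones 21 and 24 had the largest shares of TPM in gene models with Gm names (40.1 and 36.8%). By genes at 1 TPM or more, however, clone 9 (9162) lay below clone 21 (9339). Of the 1540 genes higher in monocytes, 1356 were measured in progenitors and 738 of these (54.4%) had a positive change, against 49.5% of all genes tested. The median of the lysosomal hydrolases was 0.03 and that of the macrophage identity genes 0.15. The neutrophil list had a median of -1.05 over 17 genes measured in progenitors and -0.56 over 21 in monocytes, with 0 calls in either, and its median difference between states, 0.31, was near the 0.29 of all genes. Its share of TPM in progenitors was 1.33% in low clone 20 and 0.773% in low clone 21. The other low clones had at most 0.0862% and the high clones 0.0033 to 0.138% (high against low, two-sided exact permutation within sets, p = 0.263). Tfpi, an inhibitor of tissue factor, had the smallest p among the higher genes and averaged 26.4 ± 16.5 TPM in progenitors of high-Gpnmb clones and 8.34 ± 15.6 TPM in those of low-Gpnmb clones (SD, n = 8 each; log2 change 2.78, adjusted p = 1.0).

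The difference between states was tested directly, as monocyte minus progenitor within each clone. Of 11082 genes, 273 (2.46%) had a greater high-low difference in monocytes than in progenitors, and 0 a smaller one. The clones were chosen by Gpnmb in these monocyte libraries and not by progenitor values. The choice itself therefore favours greater differences in monocytes, and the one-sided split is a description only. Mgl2 differed by 3.26 on the log2 scale (adjusted p = 0.011), Cd74 by 3.25 (adjusted p = 0.0153), Itsn1 by 2.85 and Mrc1 by 2.64. Among the lysosomal hydrolases 13 of 28 passed this test, Psap by 2.20 (adjusted p = 0.0228) and Ctsb by 2.16 (adjusted p = 0.0295), and among the antioxidant genes 6 of 12, Hmox1 by 2.74 and Prdx1 by 2.20. Mmp12 differed by 1.96 (adjusted p = 0.0718) and Trem2 by 1.80 (adjusted p = 0.1) and did not pass. The count was 1 with median centring, 106 without the pairing of both states by clone, and 26 (without clone 5) to 437 (without clone 23) when 1 clone was left out, with 38 without clone 3 or clone 9.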

How the data were processed

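RNA-seq was measured in 24 clones of mouse ER-Hoxb8 cells as progenitors and as monocytes. The authors deposited 1 table of TPM per gene symbol with 34643 rows, and the submitters' processing notes name Salmon and the build mm10. Which annotation release was used, and how transcripts were summed, is not stated in these sources. A total of 26 rows named by calendar dates were left out, and the columns then summed to 982723 to 999054. TPM keep no depth, and Salmon divides reads among near-identical copies.

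The groups were cut from Gpnmb TPM in the monocyte libraries tested, so the monocyte tests describe genes that differ along with Gpnmb, in libraries that share its make-up. The members and lists were chosen with earlier results of these data known. Genes that averaged 1 TPM or more entered a two-sided limma fit (version 3.58.1, R 4.3.3) of log2(TPM + 1) with a mean-variance trend, set as a covariate and Benjamini-Hochberg adjustment over all genes at 0.05. Fold changes on this scale understate the change of low genes. Called means past that threshold, and measured means past the filter. States were compared within clones: the series design text pairs them by clone, and as a check the 2 libraries of a clone deviated together, with r above 0.1, in 9 of 16 clones (-0.069 to 0.297). Single values were compared by exact permutation within sets.

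Named genes were Gpnmb, Mitf and Hoxb8, in each direction the 8 most changed of those that passed, were separate in both sets and reached 10 TPM (with too few, the 5 with the smallest p), and up to 3 passing genes per list. For progenitors the rule took 5 in each direction. Genes that did not pass are examples from the lists. A total of 435 of 437 list genes, in 32 lists, were in the table. Motifs were searched in RefSeq promoters of GRCm38.p6 by symbol. In simulated data for monocytes, noise was drawn independently for each gene, with no shift shared by a library. True changes of 0.5, 1, 2 and 4 (log2) were called in 8, 34, 90 and 98% of genes. There were 9 false calls among the unchanged of 10748 genes. The rate of false calls in the real libraries, where the median gene shifted between groups, was not measured by this. Alternatives covered pseudocounts, filters, scaling, sets, group sizes and each clone left out. Tables and figures were made in Python 3.11.15 with pandas 2.3.3, matplotlib 3.10.9, scipy 1.17.1 and numpy 2.4.6.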

Additional observations from a re-analysis of the deposited data

Results flagged for a closer look

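In 12 of 128 groups of 8 libraries examined, 1 library lay far from the others (gap over range above 0.526 on the log2(TPM + 1) scale). Chance gives about 1 in 20 if all 8 values come from 1 normal distribution, but each group pools 2 sets of clones. The values below are in TPM. In high-Gpnmb monocytes, clone 15 was far above the next library for Slc15a3 (293.081 against 88.3804 TPM), Fcgr1 (403.538 against 51.5562 TPM), Abcg1 (40.638 against 14.7294 TPM) and Oasl2, an interferon-induced gene (375.92 against 47.8385 TPM). High clone 1 was below the next library for Fabp5 (61.1539 against 210.922 TPM) and Stab1 (61.1972 against 153.998 TPM), and high clone 16 for Cd68 (236.397 against 450.349 TPM). In low-Gpnmb monocytes, clone 23 was above the next library for Mrc1 (15.9588 against 2.11415 TPM), for Tnfrsf11a, the receptor of the osteoclast factor RANKL (3.0897 against 0.937348 TPM), and for Pou2f2, a POU-domain transcription factor (3.38025 against 0.933794 TPM). Low clone 19 had 553.689 TPM of Hoxb8, with the next library at 224.255 TPM, and low clone 20 had 16.8513 TPM of Hint3, with the next at 13.5079 TPM. None of the 63 named genes passed the test for a difference between the sets of clones.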

How the results depend on the processing

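In monocytes 1551 genes were called in both directions together. The number was 211 after quantile normalization, 138 with median centring (chosen after seeing the data), 0 in clones 15 to 26 alone and 3823 with Gpnmb as a continuous term over 22 libraries, and leaving out 1 clone gave 839 to 2211. Other pseudocounts, filters, rescalings, group sizes and fits without the set or the trend gave 1092 to 2062. Of the 63 named genes, 33 lost their call after quantile normalization, 38 with median centring and 61 in clones 15 to 26 alone, with 4 clones a group. Hoxb8, never called, changed sign in clones 15 to 26 alone (0.31) and ranged from -0.337 to 0.0877 with 1 clone left out. In progenitors the count of 0 became 5 in clones 1 to 13 alone and stayed 0 with each clone left out. The difference between states gave 273 calls, 1 with median centring, 106 without the replicate block and 26 to 437 with 1 clone left out. It gave 318 without clones 21 and 24, a fit also chosen after seeing the data. The difference between sets gave 10 calls and 2 to 164 with 1 clone left out, most without clone 23. The cause of these shifts was not tested. Depth is unknown, so low genes are limited in a way that cannot be given here.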

Other observations

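Interferon genes were uneven among the high-Gpnmb clones. Of 20 measured interferon response genes 5 were higher (Oasl2, Bst2, Oas1a, Usp18 and Xaf1), all 20 had a positive change (median 1.65), and 0 passed after quantile normalization. The count was 3 without clone 5 or clone 19 and 2 without clone 9 or clone 21. Their sum was 251 to 8926 TPM in the high and 75.5 to 624 TPM in the low group, with the top value in clone 15, whose Irf7, a master regulator of interferon genes, stood at 1948 TPM against 23.7 to 118 TPM in the other high clones. Ccl2, the chemokine that draws monocytes, changed by 2.64 (adjusted p = 0.027, quantile-normalized 0.104, lost without clone 9, 19, 21 or 24). Ribosome biogenesis genes had 4 of 15 higher (median 0.78), 0 after quantile normalization, 0 without clone 5, 9 or 21 and 10 without clone 23. This count and that of the interferon genes are to be read against the 14.3% of all genes that were higher. Cell cycle genes had 0 calls among 23 (median -0.19), and 9 were lower in clones 1 to 13 alone. Mast cell and basophil genes had 0 calls among 8 with a median of 1.91, but 6 without clone 19 and 6 in clones 1 to 13 alone, and Cpa3, the mast cell carboxypeptidase, was at 2.32 to 253 TPM in the high and 0.063 to 353 TPM in the low group. The phagocyte oxidase had 0 of 6.

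The difference between high and low clones differed for 10 genes between the later set, clones 15 to 26, and the first, clones 1 to 13 (0.093% of 10748). Gsta3, a glutathione transferase, changed by 0.08 in the later set and by 3.09 in the first (adjusted p of the difference 0.00334). Gstm2, of the same enzyme class, changed by 0.48 and 2.49 (adjusted p = 0.0214), and Ednrb, an endothelin receptor, by 0.28 and 3.52 (adjusted p = 0.0282). Rbl1, a pocket protein of the retinoblastoma family, changed by 1.09 and -0.81, and Pms2, a mismatch repair protein, by 1.38 and -0.98. These genes were chosen after their values were seen, and without clone 23 the count was 164.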
